A study of Mus musculus with 12 samples.

Results

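Cdx1, Cdx2, Cdx4, T (brachyury), Nkx1-2, Wnt3a, Evx1, Tbx6 and Mixl1 are regulators that the mouse embryo uses to lay down the posterior body axis, and they are described here across 4 groups of embryonic stem cell libraries. They are 9 of the 55416 genes counted, and all 9 passed the filter on low counts together with the rest of the 17940 genes tested. The group was chosen by the measured change of Cdx2 with retinoic acid (RA), which was downward in wild-type cells and upward in the mutant line, and the other 8 genes were taken along with Cdx2. The values of Cdx2 are therefore given as a description with no test, and it is left out of every count of tested genes. The other 8 genes were tested across all genes.

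The 12 RNA sequencing libraries, 3 per group, were made from mouse embryonic stem cells, all labelled Bl/6J (a mouse strain) in their titles. WT cells, called parental in the protocol, were compared with a clone in which Oct4, the pluripotency transcription factor encoded by Pou5f1, carries serine in place of cysteine (C48S). The mutant line is a single clone, so effects of the mutation and of the clone's other features cannot be told apart. In the undifferentiated state both lines were kept with a MEK inhibitor (PD, 1 µM), a GSK3 inhibitor (CHIR, 3 µM) and ascorbic acid. In the RA state both lines received 1.5 mg/L RA for 2 days in medium without leukaemia inhibitory factor (LIF), and whether the inhibitors were kept is not stated. GSK3 inhibition activates the Wnt pathway, to which several of these genes respond, so the effects of RA and of the change of medium cannot be told apart. The titles and the protocol place every RA library at day 2, but another label field numbers the WT libraries from day 2 upward and the C48S libraries after them. If that field held, line and day could not be told apart.

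Cdx1, Cdx2 and Cdx4 are the caudal-type homeobox genes, which activate posterior Hox genes and keep the axis elongating. Wnt3a, a Wnt ligand, and T, a T-box factor, maintain the bipotent progenitors of the tailbud together with Cdx2, and Nkx1-2 marks those progenitors. Tbx6 directs their descendants to paraxial mesoderm, Evx1 acts in the posterior primitive streak, and Mixl1 acts in the streak as mesoderm and endoderm form. RA patterns the neural tube and activates Hox genes, and at high levels it opposes the tailbud programme. Cdx2 also has separate roles in the trophectoderm and in the intestinal epithelium.

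Totals lay between 8678088 and 13597098 counts per library, and levels are given as CPM, the usual scaling of a count to its normalised library size. Separate cultures are not stated for the libraries of a group, and the p-values here reflect spread among libraries that may be technical. Replicate 3 of C48S undifferentiated stood apart from its other 2 libraries, its counts differing from theirs with chi-square values of 8.87 and 8.68 per degree of freedom, where all other pairs of a group reached at most 2.15. For these genes, called differences that involve undifferentiated C48S are followed by their values without this library, and each of them stayed called. The stem cell genes Pou5f1, Nanog and Sox2 were present in every group. Before RA the level of Pou5f1 was 585 ± 5.07 CPM for WT against 557 ± 82.9 CPM for C48S, and after RA 23.0 ± 1.07 CPM against 68.3 ± 3.23 CPM (SD, n = 3).

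Promoter letters are shown for the 4 genes in which the motifs searched were found, because Oct4 binds the octamer ATGCAAAT and because T is a known target of TCF/LEF factors, the effectors of Wnt signals. RefSeq promoter windows on GRCm38.p6 were matched for 7 of the 9 genes, and no entry was matched for Cdx1 and Mixl1. Each window holds the 250 bases before the annotated start, read 5′ to 3′ on the gene's strand. Both strands were searched for the octamer, for the TCF/LEF core CTTTGA, for the Cdx core TTTATG and for the RA receptor core AGGTCA. Capitals mark the octamer in Cdx2 (chr5:147307250-147307499, minus strand), Cdx4 (chrX:103321148-103321397, plus strand) and Evx1 (chr6:52313248-52313497, plus strand). In T (chr17:8434173-8434422, plus strand) they mark the TCF/LEF core and the Cdx core.
Cdx2: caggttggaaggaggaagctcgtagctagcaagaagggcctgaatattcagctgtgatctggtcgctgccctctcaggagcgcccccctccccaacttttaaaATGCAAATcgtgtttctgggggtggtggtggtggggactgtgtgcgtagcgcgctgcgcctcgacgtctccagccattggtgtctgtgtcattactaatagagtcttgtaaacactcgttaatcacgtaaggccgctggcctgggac
Cdx4: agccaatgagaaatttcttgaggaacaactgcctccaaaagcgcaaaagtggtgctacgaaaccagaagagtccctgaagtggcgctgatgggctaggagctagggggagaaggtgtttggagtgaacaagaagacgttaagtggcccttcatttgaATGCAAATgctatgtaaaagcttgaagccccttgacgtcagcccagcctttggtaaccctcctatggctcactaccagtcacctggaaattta
Evx1: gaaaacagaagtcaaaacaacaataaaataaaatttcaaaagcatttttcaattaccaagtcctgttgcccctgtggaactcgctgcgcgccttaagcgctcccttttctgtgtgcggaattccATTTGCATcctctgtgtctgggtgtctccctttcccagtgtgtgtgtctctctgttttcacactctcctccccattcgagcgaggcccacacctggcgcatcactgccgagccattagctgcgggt
T: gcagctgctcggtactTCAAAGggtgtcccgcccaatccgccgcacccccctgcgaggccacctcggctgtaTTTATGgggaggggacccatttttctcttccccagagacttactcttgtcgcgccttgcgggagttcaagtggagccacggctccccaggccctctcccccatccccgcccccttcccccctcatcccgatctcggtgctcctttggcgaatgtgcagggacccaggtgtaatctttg
The octamer lay 147 to 140 bases before the start of Cdx2 and 93 to 86 bases before that of Cdx4, on the strand of the gene in both. In Evx1 it lay 126 to 119 bases before the start on the opposite strand. Of the 32536 mouse windows of this length, 526 (1.62%) held the octamer. In T, the TCF/LEF core lay on the opposite strand 234 to 229 bases before the start, a motif held by 13.9% of all windows. The Cdx core in T lay 178 to 173 bases before the start on the strand of the gene, and 10.8% of all windows held it. The letters AGGTCA were in none of the 7 windows and in 14.0% of all windows. No 2 of these motifs overlapped, and a match is a description of letters, not a binding site.

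Among the Cdx genes, Cdx2 (ENSMUSG00000029646, chromosome 5, 147237615 to 147244080 on GRCm39) had the widest swing between groups. Undifferentiated WT libraries held 6.61, 5.29 and 5.21 CPM of it, and undifferentiated C48S libraries 0.509, 0.852 and 0.207 CPM. RA-treated WT held 1.87, 3.26 and 3.71 CPM and RA-treated C48S 40.3, 39.2 and 34.95 CPM. The 3 libraries of C48S after RA were the highest and the 3 of C48S before RA the lowest, and no groups overlapped. As a log2 change, RA against undifferentiated came to -0.93 ± 0.21 (SE) in WT and to 6.17 ± 0.22 in C48S, the values that chose the group. Without C48S undifferentiated replicate 3, the library with the fewest Cdx2 counts, the change in C48S was 5.83. C48S against WT came to -3.42 ± 0.31 before RA (-3.07 without that replicate) and to 3.68 ± 0.16 after RA. The 16 counts of the 3 C48S undifferentiated libraries have an exact 95% Poisson interval of 9.15 to 25.98, which, like every such interval here, covers counting error alone.

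Cdx1 (ENSMUSG00000024619, chromosome 18, 61151934 to 61169271) is the family member induced directly by RA and by Wnt signals in the embryo. Before RA its libraries held 31.98, 28.5 and 33.3 CPM for WT and 42.4, 44.4 and 56.4 CPM for C48S. Under RA they were 88.8, 94.2 and 92.0 CPM for WT and 340.4, 345.4 and 342.1 CPM for C48S. Every group was separate from every other, with C48S above WT in both states and RA above undifferentiated in both lines. C48S was higher before RA by 0.61 ± 0.083 on the log2 scale (edgeR quasi-likelihood test, adjusted p = 1.95e-07), and by 0.49 without C48S undifferentiated replicate 3. After RA it was higher by 1.90 ± 0.065 (adjusted p = 7.57e-21). Cdx1 rose with RA in both lines, by 1.56 ± 0.077 in WT (adjusted p = 1.42e-17) and by 2.85 ± 0.070 in C48S (adjusted p = 4.15e-25, or 2.99 without that replicate). The rise was larger in C48S by 1.29 ± 0.11 (interaction, adjusted p = 1.99e-11), or 1.41 without it.

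Cdx4 (ENSMUSG00000031326, chromosome X, 102365004 to 102374198), the family member most restricted to the posterior end of the embryo, was near the limit of detection in 3 groups. WT libraries held 0.315, 0.0840 and 0.109 CPM before RA, and C48S libraries 0.255, 0.426 and 0.414 CPM, from 5 and 11 counts in all. The RA libraries gave 0.829, 0.515 and 0.391 CPM for WT and 5.30, 5.33 and 6.74 CPM for C48S, from 18 and 211 counts. C48S after RA stood above all other libraries, and the remaining groups overlapped with their neighbours. Cdx4 passed the low-count filter through C48S after RA alone, so a difference for that group was built into its selection and is given as a description only. C48S against WT after RA came to 3.32 ± 0.32, and the change with RA in C48S to 3.98 ± 0.35 (4.09 without C48S undifferentiated replicate 3). Before RA the difference between the lines was 1.08 ± 0.72 (adjusted p = 0.21). With RA Cdx4 rose by 1.74 ± 0.65 in WT (adjusted p = 0.0157). The call in WT was lost without WT undifferentiated replicate 2 (1.37, adjusted p = 0.0809) and without WT RA replicate 1 (1.44, adjusted p = 0.0747). The changes of the lines lay 2.24 ± 0.95 apart, with C48S the higher.

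**Figure D1:**
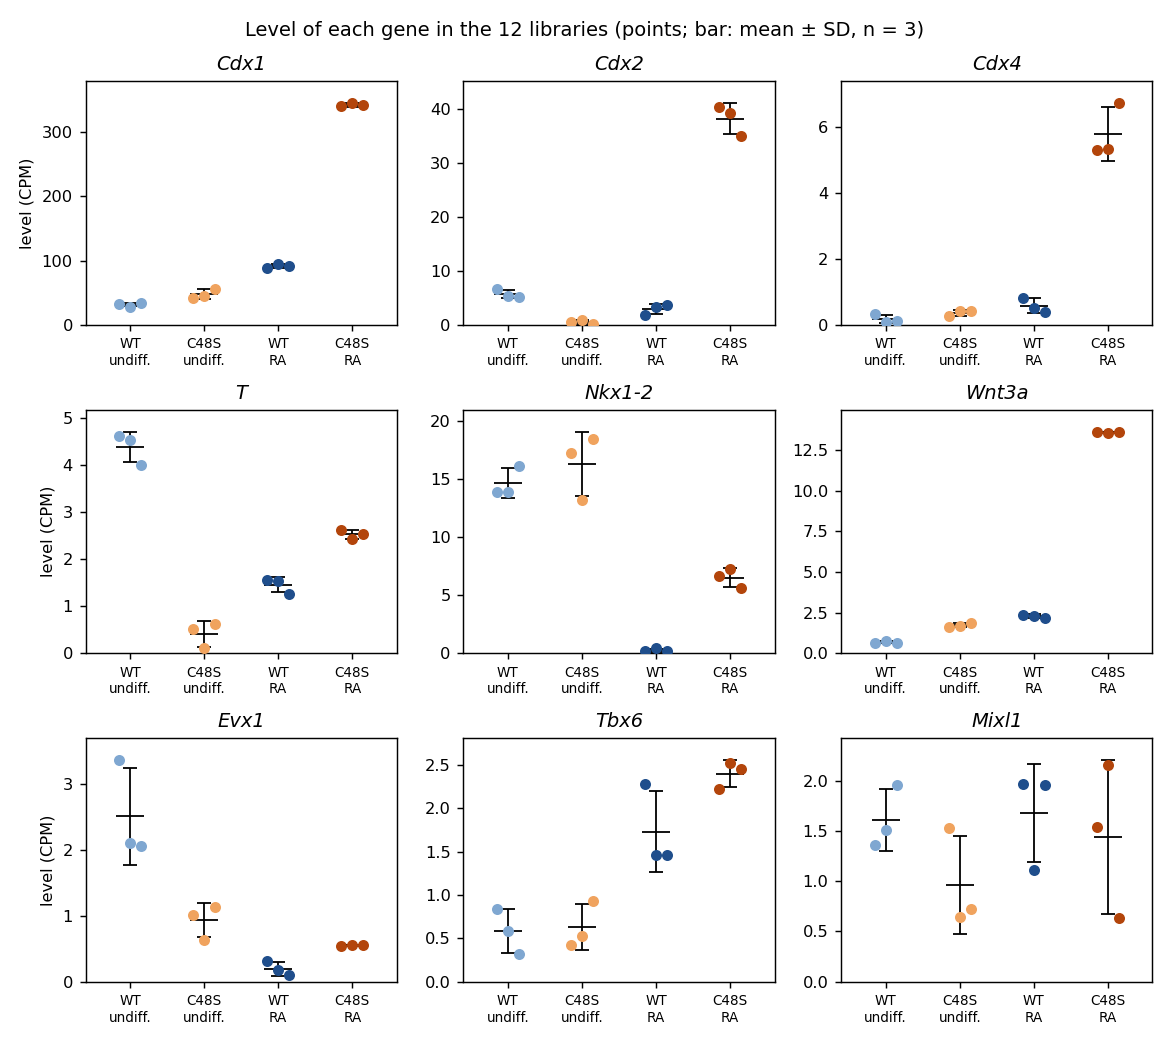
Level of each of the 9 genes (vertical axes, CPM) in the 12 libraries, by group (horizontal axes); points are libraries, and the long dash and the error bar give the mean ± SD (n = 3). In Cdx1, Cdx2, Cdx4 and Wnt3a the 3 libraries of C48S after RA lie above all others, in T and Evx1 the WT undifferentiated libraries are highest, and in Mixl1 the groups overlap.

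Counted per kilobase of gene model, Cdx1 supplied most Cdx transcript in every group. The summed level of the 3 genes was 20.5 ± 1.57 CPM per kilobase in WT and 27.7 ± 4.22 in C48S before RA. After RA it was 54.0 ± 1.80 CPM per kilobase in WT and 215.6 ± 1.59 in C48S. Cdx1 made up 87.3 ± 1.70% of this sum in WT undifferentiated, 98.5 ± 0.685% in C48S undifferentiated, 97.1 ± 0.502% in WT after RA and 90.8 ± 0.372% in C48S after RA. The share of Cdx2 was 12.3 ± 1.47%, 0.883 ± 0.586%, 2.40 ± 0.735% and 7.83 ± 0.558% in the same order. Cdx2 thus held its largest share in undifferentiated WT, where its level per kilobase (2.52 ± 0.347) was below that of C48S after RA (16.9 ± 1.26). The share of Cdx4 had its highest mean in C48S after RA, at 1.37 ± 0.201%.

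**Figure D2:**
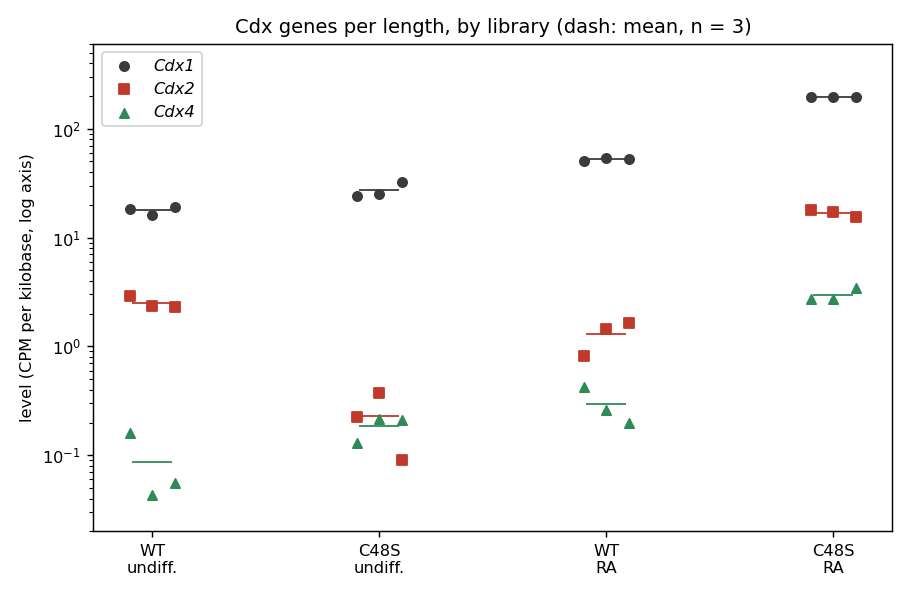
Level per kilobase of gene model (vertical axis, CPM per kilobase, log axis) of Cdx1, Cdx2 and Cdx4 in each library, by group (horizontal axis); dashes are means (n = 3). Cdx1 is highest in every library, and Cdx2 overlaps with Cdx4 in C48S undifferentiated and lies above it in the other groups.

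Wnt3a (ENSMUSG00000009900, chromosome 11, 59138859 to 59181578), the ligand of the group, was lowest in undifferentiated WT and highest in C48S after RA. In the undifferentiated state the levels were 0.629, 0.756 and 0.651 CPM for WT against 1.61, 1.71 and 1.86 CPM for C48S. RA-treated WT held 2.38, 2.32 and 2.15 CPM and RA-treated C48S 13.6, 13.6 and 13.6 CPM. As in Cdx1, no groups overlapped and C48S lay above WT in both states. C48S was higher before RA by 1.31 ± 0.33 (adjusted p = 0.000857), or 1.26 without its replicate 3, and after RA by 2.57 ± 0.17 (adjusted p = 5.69e-15). Wnt3a rose with RA by 1.72 ± 0.31 in WT (adjusted p = 5.69e-06) and by 2.98 ± 0.18 in C48S (adjusted p = 1.75e-16, or 3.04 without that replicate). The rise was larger in C48S by 1.25 ± 0.41 (adjusted p = 0.0141, or 1.30 without it), a call lost without WT undifferentiated replicate 2 (1.14, adjusted p = 0.084). On chromosome 11 the median log2 difference of protein-coding genes at 1 CPM or more was -0.528 before RA and -0.477 after it (1167 genes). The part of this shift in the Wnt3a differences was not tested.

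T (ENSMUSG00000062327, chromosome 17, 8653255 to 8661328), the T-box factor of the streak and tailbud, was highest in undifferentiated WT. Before RA its libraries held 4.61, 4.54 and 4.01 CPM for WT and 0.509, 0.107 and 0.621 CPM for C48S. Under RA they were 1.55, 1.54 and 1.27 CPM for WT and 2.61, 2.43 and 2.54 CPM for C48S. The groups did not overlap, and their order was WT undifferentiated, C48S after RA, WT after RA and C48S undifferentiated. T was lower in C48S before RA (-3.35 ± 0.35, adjusted p = 3.12e-10, or -3.69 without C48S undifferentiated replicate 3). With RA it fell in WT (-1.58 ± 0.27, adjusted p = 2.92e-06) and rose in C48S (2.56 ± 0.38, adjusted p = 2.47e-07, or 2.90 without that replicate). The RA changes differed by 4.14 ± 0.46 (adjusted p = 3.86e-09), or 4.48 without it. After RA C48S was higher by 0.79 ± 0.29 (adjusted p = 0.0202). That last call was lost with DESeq2 (0.75, adjusted p = 0.0543), without WT RA replicate 3 (0.68, adjusted p = 0.0816) and without C48S RA replicate 1 (0.76, adjusted p = 0.0521).

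Tbx6 (ENSMUSG00000030699, chromosome 7, 126380655 to 126384732), the T-box factor of paraxial mesoderm, rose with RA in both lines. WT libraries held 0.839, 0.588 and 0.325 CPM before RA, and C48S libraries 0.424, 0.533 and 0.931 CPM. The RA libraries gave 2.28, 1.46 and 1.47 CPM for WT and 2.23, 2.53 and 2.46 CPM for C48S. In each state the lines overlapped, and in each line the states did not. Tbx6 rose by 1.53 ± 0.41 in WT (adjusted p = 0.0011) and by 1.94 ± 0.38 in C48S (adjusted p = 2.56e-05), or 2.32 in C48S without its undifferentiated replicate 3. No difference between the lines passed the test, either before RA (0.073 ± 0.50, adjusted p = 0.917) or after it (0.48 ± 0.31, adjusted p = 0.193).

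Nkx1-2 (ENSMUSG00000048528, chromosome 7, 132196607 to 132201366), the homeobox marker of tailbud progenitors, was lowest in WT after RA. In the undifferentiated state the levels were 14.0, 13.9 and 16.2 CPM for WT against 17.3, 13.2 and 18.5 CPM for C48S. RA-treated WT held 0.207, 0.429 and 0.195 CPM, from 9 counts in all, and RA-treated C48S 6.69, 7.30 and 5.63 CPM, from 236 counts. The lines overlapped before RA, where the difference was 0.16 ± 0.13 (adjusted p = 0.30), and were separate after it. C48S was higher after RA by 4.46 ± 0.32 (adjusted p = 4.25e-14). Nkx1-2 fell with RA in WT (-5.63 ± 0.28, adjusted p = 1.97e-19) and in C48S (-1.33 ± 0.14, adjusted p = 3.63e-10, or -1.24 without C48S undifferentiated replicate 3). The fall was smaller in C48S by 4.29 ± 0.37 (adjusted p = 7e-12, or 4.38 without it). Nkx1-2 lies within the span of Fgfr2 on the same strand and shares no exonic base with it, and the Fgfr2 counts summed over each group ran the other way, at 193, 127, 1865 and 545 in WT undifferentiated, C48S undifferentiated, WT after RA and C48S after RA. The antisense gene Gm16764 shares 541 exonic bases with Nkx1-2, had at most 4 counts in a group and was counted apart by strand.

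Evx1 (ENSMUSG00000005503, chromosome 6, 52290483 to 52295363), a homeobox gene of the posterior streak beside the Hoxa cluster, was highest in undifferentiated WT. Before RA its libraries held 3.36, 2.10 and 2.06 CPM for WT and 1.02, 0.639 and 1.14 CPM for C48S. Under RA they were 0.311, 0.172 and 0.0977 CPM for WT and 0.538, 0.561 and 0.555 CPM for C48S, from 6 and 20 counts in all. No groups overlapped, although both RA groups were near the limit of detection. It passed the low-count filter through undifferentiated WT alone, so a difference for that group was built into its selection and is described without a test. C48S against WT before RA was -1.40 ± 0.36 (-1.54 without C48S undifferentiated replicate 3), the change with RA in WT was -3.63 ± 0.49, and the change in C48S minus that in WT was 2.87 ± 0.73 (3.02 without that replicate). The change with RA in C48S was -0.76 ± 0.46 (adjusted p = 0.133). After RA C48S was higher by 1.48 ± 0.64 (adjusted p = 0.0488), a call lost in 15 of the 17 alternatives that tested it, among them 11 of the 12 that left out a library (adjusted p from 0.0403 to 0.167). Evx1 lies on chromosome 6, whose median gene was higher in C48S by 0.583 before RA and 0.632 after it (659 genes). The part of this shift in the Evx1 differences was not tested.

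Mixl1 (ENSMUSG00000026497, chromosome 1, 180520608 to 180524599), the streak homeobox gene, passed none of the 5 tests with edgeR or DESeq2, nor an unadjusted p under 0.05. WT libraries held 1.36, 1.51 and 1.95 CPM before RA, and C48S libraries 1.53, 0.639 and 0.724 CPM. The RA libraries gave 1.97, 1.12 and 1.95 CPM for WT and 1.54, 2.15 and 0.634 CPM for C48S. Each group overlapped with its neighbours in level. The difference with the smallest adjusted p was that between the lines before RA (-0.68 ± 0.42, adjusted p = 0.175), which passed the threshold without C48S undifferentiated replicate 1 (-1.21, adjusted p = 0.0447).

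**Figure D3:**
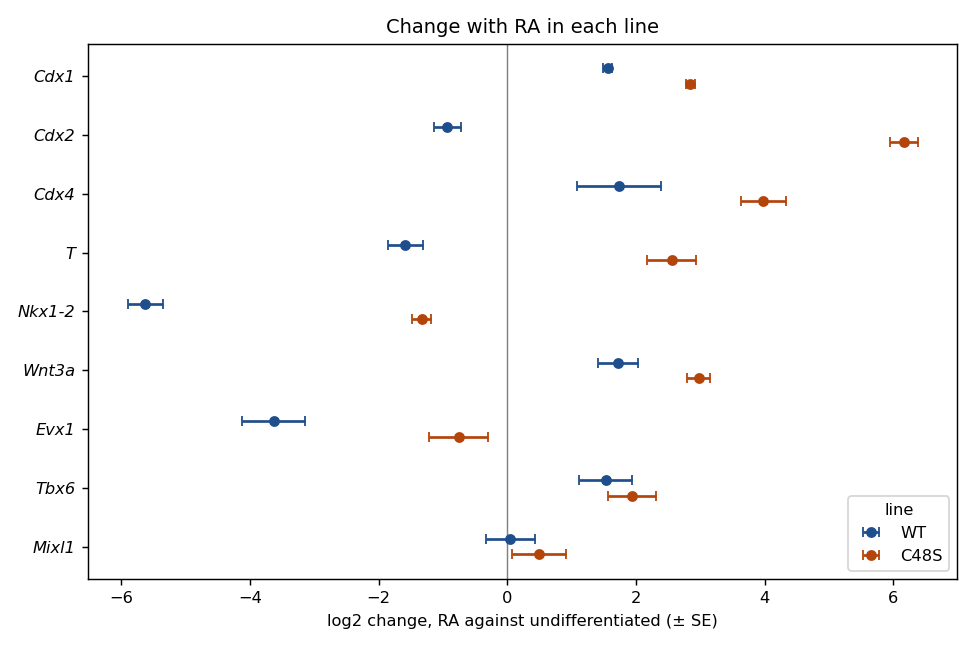
Log2 change with RA (horizontal axis, RA against undifferentiated, ± SE from edgeR) of each gene (vertical axis) in WT and in C48S, 3 libraries per group. T and Cdx2 lie left of 0 in WT and right of 0 in C48S, Cdx1, Cdx4, Wnt3a and Tbx6 lie right of 0 in both lines, and the Cdx2 values are those that chose the group.

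Counts of calls leave out Cdx4 or Evx1 in each comparison that uses the group through which it passed the filter. Before RA, 2 of 7 genes were higher in C48S (Cdx1 and Wnt3a) and 1 was lower (T), where 27.5% of all tested genes were called higher and 28.1% lower. After RA, 5 of 7 were higher in C48S (Cdx1, T, Nkx1-2, Wnt3a and Evx1) and 0 lower, where 28.8% of all genes were called higher and 25.7% lower. That 0 was also 0 at an unadjusted p under 0.05 and with DESeq2, which called 3 higher, Evx1 and T losing their calls. With RA in WT, 4 of 7 rose (Cdx1, Cdx4, Wnt3a and Tbx6) and 2 fell (T and Nkx1-2), against 40.9% and 37.4% of all genes. With RA in C48S, 4 of 7 rose (Cdx1, T, Wnt3a and Tbx6) and 1 fell (Nkx1-2), against 39.0% and 34.6%. The RA change was more positive in C48S for 4 of 6 (Cdx1, T, Nkx1-2 and Wnt3a) and less positive for 0, against 22.2% and 17.2%, and the 0 held with DESeq2 and at an unadjusted p under 0.05. Nothing is read from any of these counts, between the lines or with RA, since the libraries of all 4 groups entered the choice of these genes through Cdx2. The contrasts share libraries, so their values are set side by side and not compared.

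The order of the genes, counted per kilobase, also changed between groups. In undifferentiated WT it ran from Cdx1 (17.9 CPM per kilobase) through Nkx1-2 (4.50), Cdx2 (2.52) and T (1.90) to Cdx4 (0.0861), with overlap between Evx1 and Mixl1 and between Tbx6 and Wnt3a. In undifferentiated C48S, Cdx1 (27.3) and Nkx1-2 (5.01) stood above the rest, and the other 7 genes, from Wnt3a (0.625) down to T (0.178), each overlapped with their neighbours. After RA in WT, Cdx1 (52.4) led, Cdx2, Tbx6, Wnt3a, Mixl1 and T followed between 1.30 and 0.629 with overlap, and Nkx1-2 (0.0849) and Evx1 (0.0672) came last. After RA in C48S no neighbours overlapped: Cdx1 (195.8), Cdx2 (16.9), Wnt3a (4.93), Cdx4 (2.95), Nkx1-2 (2.00), Tbx6 (1.33), T (1.09), Mixl1 (0.628) and Evx1 (0.192).

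The genes whose pattern over the 12 libraries was most like each of these genes were found among 13923 protein-coding genes by the root mean square difference of centred log2 CPM, where 0 is an identical pattern. Closest to Cdx1 were Loxl4 (0.141), Ccnd2 (0.198) and Cilp2 (0.224), and closest to Wnt3a were Ccnd2 (0.224), Cdx1 itself (0.304) and Hoxc10 (0.305). Cdx4 was nearest to Wnt3a (0.389), Esm1 (0.408) and Ccnd2 (0.463). Cdx1, Wnt3a and Ccnd2, a cyclin of the G1 phase, thus had like patterns. Cdx4 passed the filter through C48S after RA alone, so likeness to genes highest in that group was partly built into its selection. The same holds for Evx1 and undifferentiated WT. Ccnd2 was at 36.0 ± 1.57 and 59.7 ± 2.40 CPM before RA and at 87.2 ± 2.26 and 391.2 ± 10.1 CPM after RA, in WT and C48S respectively. Cdx2 had no close match, its nearest genes being Sema6a (0.900), Fbp2 (0.958) and Kif19a (1.11). Nearest to T were Gm8281 (0.368), Myh7b (0.372) and the DNA methyltransferase gene Dnmt3a (0.402), the last at 255 ± 4.18 and 50.6 ± 3.31 CPM before RA and at 104.3 ± 1.38 and 180 ± 1.70 CPM after RA. Nkx1-2 was nearest to H2-M5 (0.350), Mpzl2 (0.577) and Mylpf (0.583), Evx1 to Trib1 (0.290), Liph (0.322) and Wdr62 (0.326), Tbx6 to Trim65 (0.209) and Slc24a1 (0.242), and Mixl1 to Tmem178 (0.323), Tm4sf5 (0.341) and Il20rb (0.372).

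Of 15 signals and factors of the posterior growth zone, 13 were tested. After RA 8 were higher and 2 lower in C48S (28.8% and 25.7% of all tested genes), with a median log2 difference of 0.503 (0.0233 over all tested genes). Those higher with the smallest adjusted p were Cyp26a1, which degrades RA in the tailbud (1.13 ± 0.05, adjusted p = 5.23e-20), Fgf4 (2.01 ± 0.13), the ligand Wnt5b (2.12 ± 0.15) and Grhl3 (1.28 ± 0.11). Cyp26a1 had 246 ± 10.6 CPM for WT against 536 ± 8.92 CPM for C48S after RA. Fgf4 nevertheless lay below its undifferentiated level after RA, with log2 changes of -6.96 for WT and -4.71 for C48S. Cyp26a1 and Wnt5b lay above theirs in each line, and Grhl3 was called so in C48S alone. The 2 that were lower were the Wnt target Sp5 (-2.13 ± 0.17) and the ligand Wnt8a (-0.84 ± 0.15). Before RA 2 of the 13 were higher in C48S and 4 were lower (27.5% and 28.1% of all tested genes), with a median of -0.233. Among the 4 were Sp5 (-3.04 ± 0.13) and Fgf3, with 9.97 ± 0.59 CPM for WT against 0.541 ± 0.13 CPM for C48S (-4.15 ± 0.33). Fgf3 also fell with RA in WT (-3.94 ± 0.32), so undifferentiated WT stood above the other groups. Its pass through the low-count filter may rest on that group alone, so its difference is a description only. With RA 7 rose and 4 fell in WT (40.9% and 37.4% of all tested genes), and 9 rose and 2 fell in C48S (39.0% and 34.6%). Fgf8, the main growth-zone FGF, was below 1 CPM in every group on average and was not tested.

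Of 24 genes of the primitive streak and nascent mesoderm, 20 were tested. After RA 8 were higher and 5 lower in C48S (28.8% and 25.7% of all tested genes), with a median of 0.242. Tcf15, a factor of paraxial mesoderm, had 3.56 ± 0.97 CPM for WT against 39.2 ± 1.5 CPM for C48S (3.45 ± 0.15, adjusted p = 2.33e-20). Nodal (1.46 ± 0.07), the T-box gene Tbx3 (0.98 ± 0.05) and the T-box gene Eomes (1.86 ± 0.15) were higher too. Nodal and Tbx3 nevertheless lay below their undifferentiated levels after RA. Their log2 changes were -2.045 and -1.19 for WT, and -0.38 and -0.59 for C48S. Eomes lay above its undifferentiated level in each line (0.61 for WT, 1.93 for C48S). Tcf15 did so in C48S (2.82), with no call for WT (-0.30). Meox1 (-2.68 ± 0.27), Dll1 (-1.16 ± 0.17), Kdr (-2.18 ± 0.33) and Snai1 (-0.69 ± 0.13) were lower. Before RA 10 were higher and 3 lower in C48S (27.5% and 28.1% of all tested genes). Msgn1 and Mesp1, which act downstream of Tbx6 and T in mesoderm, stayed below 0.2 CPM on average in every group and were not tested.

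Of 12 feedback, target and TCF/LEF factor genes of the Wnt pathway, 2 were higher and 9 lower in C48S before RA (27.5% and 28.1% of all tested genes). Their median was -0.969, whereas Wnt3a itself was higher there. Axin2 (-1.05 ± 0.06), Notum (-1.11 ± 0.07) and the TCF/LEF factor genes Tcf7 (-1.02 ± 0.06) and Tcf7l1 (-1.29 ± 0.06) were among the lower genes. Axin2 had 137 ± 3.8 CPM for WT against 66.1 ± 3.8 CPM for C48S. Ccnd1 and Lgr5 were the 2 higher. Undifferentiated medium held a GSK3 inhibitor in both lines. After RA 5 were higher and 6 lower in C48S (28.8% and 25.7% of all tested genes), with a median of -0.264. With RA 4 rose and 7 fell in WT (40.9% and 37.4% of all tested genes), and 6 rose and 4 fell in C48S (39.0% and 34.6%). The interaction was positive for 7 and negative for 1 of the 12 (22.2% and 17.2% of all tested genes). Tcf7l1 (1.77 ± 0.08), Notum (1.89 ± 0.15), Lef1 (1.37 ± 0.12) and Axin2 (0.71 ± 0.08) were among the positive, and Lgr5 (-4.18 ± 1.02) was the negative.

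Hox genes, the main targets of Cdx factors, mostly rose with RA in both lines, and they are given by position group, since higher groups mark more posterior levels of the axis. Of all tested genes 40.9% rose and 37.4% fell with RA in WT, and 39.0% and 34.6% in C48S. Between the lines after RA, 28.8% were higher and 25.7% lower in C48S. Of 12 genes of groups 1 to 4, 12 rose in each line, and after RA 5 were higher and 2 lower in C48S (median 0.411). Of 15 genes of groups 5 to 9, 15 rose in each line, and after RA 9 were higher and 3 lower in C48S (median 0.619). Of 12 genes of groups 10 to 13, 9 rose and 2 fell in WT, 10 rose and 1 fell in C48S, and after RA 10 were higher and 1 lower in C48S (median 1.14). The 10 higher became 6, beside the 1 lower, with DESeq2, without WT RA replicate 1 and without C48S RA replicate 3. In C48S after RA all 12 genes of groups 10 to 13 averaged at least 1 CPM. In WT undifferentiated, C48S undifferentiated and WT after RA, 2, 5 and 7 did. Genes that passed the low-count filter through C48S after RA alone were not left out, so part of the 10 may be built into the selection. Whether the lists differ from one another or from all tested genes was not tested.

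Hoxa9, a known Cdx target, was at 1.33 ± 0.33 and 2.11 ± 0.66 CPM before RA and at 9.23 ± 0.47 and 218 ± 1.6 CPM after RA in WT and C48S, a difference after RA of 4.56 ± 0.08 (adjusted p = 3.98e-31). Hoxa10 (4.02 ± 0.14), Hoxa11 (4.66 ± 0.32), Hoxa7 (2.95 ± 0.10) and Hoxc10 (2.48 ± 0.17) were higher as well. Hoxb8, also known to respond to Cdx factors, had 34.8 ± 2.3 CPM for WT against 34.7 ± 3.4 CPM for C48S after RA (0.00 ± 0.10, adjusted p = 0.999). Hoxb9 (-0.52 ± 0.08), Hoxb4 (-0.87 ± 0.09) and Hoxb13 (-0.68 ± 0.20) were lower in C48S. So were Hoxb5 (-0.45 ± 0.15), Hoxc4 (-0.49 ± 0.16) and Hoxc5 (-0.52 ± 0.15), whereas Hoxb6 was higher (0.62 ± 0.11). The Hoxa genes lie on chromosome 6, whose median gene was higher in C48S after RA by 0.632, a shift whose part in their differences was not tested.

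**Figure D4:**
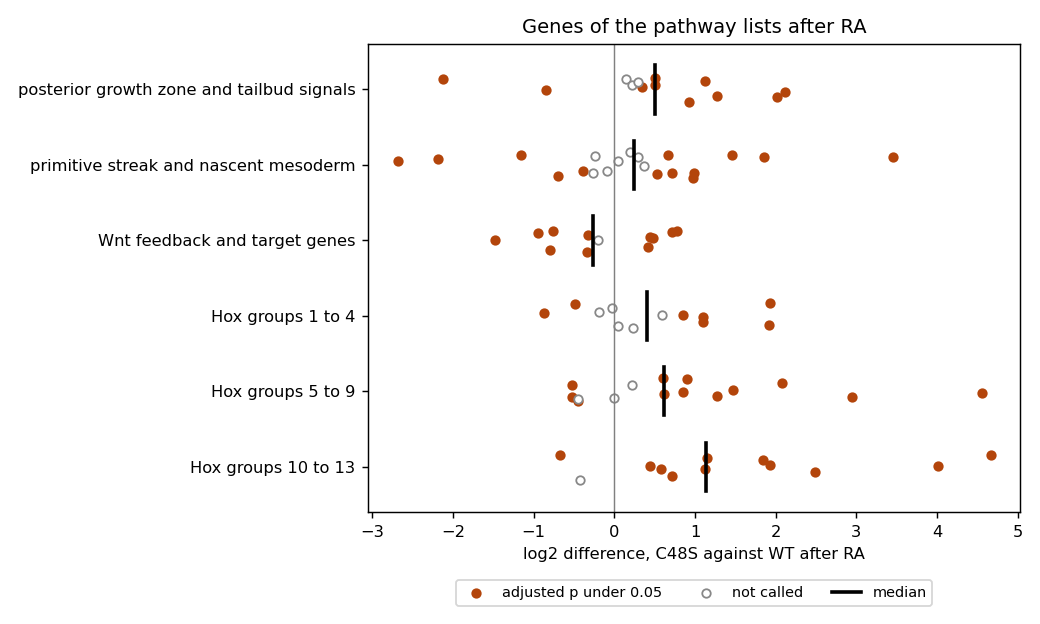
Log2 difference of C48S against WT after RA (horizontal axis) for each tested gene of 6 lists (vertical axis); filled points had an adjusted p under 0.05 in edgeR's quasi-likelihood test, open points did not, and the bar is the list's median. The 3 largest differences belong to Hoxa11, Hoxa9 and Hoxa10, and the medians run from -0.264 (Wnt feedback) to 1.14 (Hox groups 10 to 13).

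Markers of other cell states moved with the same contrasts, and in bulk RNA fewer cells of a type and less RNA per cell cannot be told apart. Beside every marker list below, 28.8% of all tested genes were called higher and 25.7% lower in C48S after RA. Of 8 stem cell markers, 7 were higher and 0 lower in C48S after RA by edgeR, as by DESeq2 and at an unadjusted p under 0.05. Their summed level was 4912 to 4985 CPM in WT and 4535 to 4606 CPM in C48S before RA, and 235 to 248 CPM in WT and 622 to 659 CPM in C48S after RA, with none at 0. Nkx1-2, T and Evx1 had a higher level in undifferentiated WT than in WT after RA. In C48S, Nkx1-2 and Evx1 were likewise higher before RA (16.3 against 6.54 and 0.932 against 0.551 CPM). T was lower in C48S before RA than after it (0.412 against 2.53 CPM). The part of remaining undifferentiated cells in the higher levels of these genes in C48S than in WT after RA was not tested. The libraries of C48S after RA held more Cdx1, Cdx2, Cdx4 and Wnt3a than those of either undifferentiated group.

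For the trophectoderm, where Cdx2 is a defining factor, 15 of 16 markers were tested, of which 5 were higher and 7 lower in C48S after RA (median 0.0051). Their summed level was 169 to 178 and 202 to 212 CPM before RA and 773 to 795 and 456 to 479 CPM after RA in WT and C48S. Krt18 had 341 ± 5.8 CPM for WT against 112 ± 3.6 CPM for C48S after RA (-1.60 ± 0.07). Fgfr2 (-1.98 ± 0.11) and Krt8 (-0.86 ± 0.07) were lower as well, whereas Eomes (1.86 ± 0.15), Gata2 (1.05 ± 0.11) and Tfap2c (0.87 ± 0.09) were higher. Elf5, a defining gene of trophoblast stem cells, was below 0.4 CPM on average in every group. Of 10 intestinal markers, 6 were tested, of which 3 were higher and 1 lower in C48S after RA. Their summed level was 46.3 to 50.5 CPM in WT and 39.3 to 42.2 CPM in C48S after RA, Fabp2 had no count in any library, and Tff3 had none after RA.

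Of 12 endoderm markers, 10 were tested, of which 4 were higher and 3 lower in C48S after RA, at summed levels of 176 to 184 CPM in WT and 185 to 195 CPM in C48S. Of 14 anterior neural markers, 10 were tested, of which 2 were higher and 3 lower, at 38.3 to 44.9 and 41.1 to 42.2 CPM. Without WT RA replicate 1, and likewise without C48S RA replicate 3, 1 of these was higher and 2 were lower. Of 10 fibroblast and feeder cell markers, 9 were tested, of which 1 was higher (Pdgfrb) and 4 lower (Col1a2, Thy1, Dcn and Postn). Their sum, at 240.0 to 245.7 and 363 to 367 CPM, was nevertheless higher in C48S. Pdgfrb, higher by 1.39 ± 0.06, lies 8951 bases from Cdx1. Before RA the fibroblast markers summed to 340 to 371 CPM in WT and 460 to 617 CPM in C48S. The part of these cell types in the levels of the posterior genes was not tested.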

How the data were processed

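Total RNA of 12 mouse embryonic stem cell libraries was isolated on columns and depleted of ribosomal RNA, per the labels' protocols. The deposited values were raw counts of read pairs per gene. Per the file headers, the authors made them with featureCounts 1.6.3 (strand option 2) on Ensembl GRCm39, release 104. Per the submitters' processing notes, the tools included STAR 2.7.9a and DESeq2, with the build mm39. Opposite strands were therefore counted apart.

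Gene symbols were matched by identifier for 52083 of the 55416 genes (94.0%). Libraries were grouped by the line and state in their titles. The test was edgeR's robust quasi-likelihood fit over all 12 libraries (edgeR 4.0.16, R 4.3.3), after TMM scaling and filterByExpr with a minimum count of 10, and it left 8 residual degrees of freedom. A call means an adjusted p under 0.05 (Benjamini-Hochberg, over the 17940 genes tested). Only the 9 genes were screened for passing the low-count filter through a single group. The list counts and the list genes named may therefore include genes whose difference was built into their selection. The lines were compared within each state and the states within each line, and the interaction compared the RA changes of the lines. CPM used the TMM-scaled library size, likeness used log2 CPM (prior count 2), and levels per kilobase used the gene lengths in the files. Named genes were the 9 genes, up to 4 called genes of a list with the smallest adjusted p or all of a list with at most 5 calls, and the 3 nearest in pattern, of which 1 is not reported here. Other list members and chromosomal neighbours were named after their values were seen. The 9 genes and the gene lists were chosen with earlier results of these data known. The procedure was tested on simulated data. Other settings tried were RLE scaling, DESeq2 1.42.0, different filters on low counts, fits of the compared groups alone, the replicate number as a block, CPM from total counts, and leaving out each library in turn. Promoter sequences came from RefSeq (GRCm38.p6), whose coordinates are not those of the counts.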

Additional observations from a re-analysis of the deposited data

Results flagged for a closer look

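The change with RA differed between C48S and WT for 4 of the 6 genes tested by the interaction term of edgeR's quasi-likelihood fit, which is why these 4 are listed again. On the log2 scale the change in WT subtracted from the change in C48S gave 1.29 for Cdx1, 4.14 for T, 4.29 for Nkx1-2 and 1.25 for Wnt3a. In T the change was downward in WT and upward in C48S, and each of these changes passed its own test. Cdx1 and Wnt3a rose in both lines, and Nkx1-2 fell in both. For Cdx2, whose changes were also of opposite sign, no test was made because these values chose the group, and for Cdx4 and Evx1 none is given because the low-count filter kept each through a single group. Of all genes tested, 22.2% had a positive difference of this kind and 17.2% a negative one, and the contrasts are those that chose the group, so the count of 4 supports nothing.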

How the results depend on the processing

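Under the alternatives run, no called difference of the 8 tested genes changed sign, and the counts of genes called stayed within 1.5 times those reported: 8847 to 10221 for C48S against WT before RA, 8889 to 10737 after RA, 13620 to 15617 for RA in WT, 12130 to 13939 for RA in C48S and 6420 to 7771 for the interaction. Between 4 and 5, 4 and 6, 6 and 7, 6 and 6, and 4 and 6 of the 8 genes, Cdx4 and Evx1 included, were called in the same order. The calls that depended on a setting were those of Evx1, T, Cdx4, Wnt3a and Mixl1 named in the report, and the cause was not tested. The difference of Tbx6 between the lines before RA, which was not called, changed sign without C48S undifferentiated replicate 3 (-0.30). For Cdx2 the difference before RA was -3.89 and the interaction 7.54 without C48S undifferentiated replicate 2. With CPM from total counts, Cdx1 in C48S after RA was at 373.8 CPM. Of 1068 recomputed list counts, 24 moved by over 1.5 times. Fits of the compared groups alone gave no interaction, and no value for Cdx4, Tbx6 or Evx1 where the filter dropped them.

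With the replicate number as a block, 9858, 9638, 13969, 13092 and 6938 genes were called in the 5 comparisons, and 4, 5, 7, 6 and 5 of the 8 genes. Evx1 after RA lost its call (adjusted p = 0.0549), and no other gene of the 8 did. The numbers are not shown to pair the libraries: deviations of same-numbered libraries from their group means correlated across genes at -0.0529 to 0.029. Depth limits the genes near 1 CPM, above all Cdx4 and Evx1, whose smallest groups held 5 and 6 counts.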

Other observations

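Pdx1 and Wnt9a, tested neighbours of Cdx2 and Wnt3a on GRCm39, were chosen for mention after their values were seen. Pdx1, the pancreatic homeobox gene that shares the ParaHox cluster with Cdx2, lies 24957 bases from it. Pdx1 rose with RA in both lines, by 3.78 ± 0.48 on the log2 scale in WT (edgeR, adjusted p = 9.21e-09) and by 3.10 ± 0.32 in C48S (adjusted p = 1.81e-10), and the interaction did not pass (-0.68 ± 0.69, adjusted p = 0.468). After RA Pdx1 was higher in C48S (1.01, adjusted p = 0.000612), as Cdx2 was in level. It was low throughout, at 0.154 and 0.555 CPM before RA and 2.37 and 4.83 CPM after RA in WT and C48S. Wnt9a, a Wnt ligand gene 16176 bases from Wnt3a, rose with RA by 4.90 ± 0.18 in WT (adjusted p = 4.86e-23) and by 3.24 ± 0.20 in C48S (adjusted p = 1.38e-16). After RA Wnt9a was lower in C48S (-1.34 ± 0.11, adjusted p = 2.29e-12), at 13.8 CPM against 35.3 CPM in WT, where Wnt3a was higher.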
